A study of Mus musculus with 78 samples.

Results

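ZFP143 peaks at promoters that serve a single gene are described here, together with the transcription of that gene before and after ZFP143 was removed. A peak was taken when it shared no base with a CTCF peak and when its centre lay within 2 kb of transcript starts of exactly 1 protein-coding or long non-coding gene. Of the 3189 ZFP143 peaks in the list, 1339 met this rule, and they stood at 1306 genes, of which 1273 had 1 such peak and 33 had 2. The other peaks comprised 554 near the starts of several genes, 221 that overlapped a CTCF peak and 1075 with no start of these gene types in reach.

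The cells were E14TG2a mouse embryonic stem cells kept in serum-free 2i medium with LIF. All groups carried the same homozygous knock-in, which fuses FKBP12F36V, an HA tag and, after a P2A site, GFP to the end of ZFP143, and the cells came from clones picked after sorting of single cells. How many clones were used is not given in the sources used here. dTAG-V1 at 500 nM, a degrader that recognises FKBP12F36V, was given to the depleted groups and DMSO to the controls. Newly made RNA was measured by TT-seq in DMSO and at 2 h, 6 h and 24 h of dTAG, and mRNA by RNA-seq in DMSO and after 24, 48 and 72 h. A separate RNA-seq experiment took cells after 24 h of DMSO or dTAG. It took them again after a further 24 h with retinoic acid (RA) in N2B27 medium, with DMSO or dTAG kept on. Depletion had then lasted 48 h, so that RA, the change of medium and the longer depletion cannot be told apart. Each of these 3 tables held 4 groups of 2 replicates, 8 libraries in all. ZFP143 was mapped by ChIP-seq through its HA tag, and its peaks came as 1 list without replicates.

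ZFP143, called ZNF143 in human and Staf in frog, is a zinc finger transcription factor known for binding promoters close to the transcript start. Its sites share a core, and one form of the site carries an additional stretch of bases just before that core. It was first described as an activator of small nuclear RNA and selenocysteine tRNA genes, and it is widely expressed and needed for the growth of many cell types.

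The sequences below come from the mm10 genome (GRCm38.p6) and show a motif match near the peak summit. The genes lost transcription, gained it or were called in no comparison. They are shown so that the matches at genes of the 3 sets can be compared. Capitals mark the match, which is the core CCCANNATG, the longer form ACTACANNNCCCA or, at Gm26901, Stau1 and Kif13b, both where they overlap. Each strand is given as in the genome. Where a peak held the core, the core match nearest to the summit is shown, and otherwise the nearest match of the longer form. The peaks of Zfp111, Rpp30 and Dync1i2 also held the longer form, outside the stretch shown. The genes of the first 5 lines were called lower in TT-seq at 2 h, those of the next 3 were called higher, and those of the last 4 were called in none of the 8 comparisons with DMSO. Other named genes of these sets are not shown, among them Morf4l1, which held the core, and Pank3, Hbp1 and Emsy, which held the longer form. Sult6b1 and Dffa are also among them, with no match found.
Usp40 (chr1:88008562-88008590, plus strand): cagatgcgACTACACTTCCCAgggtgcgt
Rbm41 (chrX:139998607-139998635, minus strand): atcacattACTACACTTCCCAgagttcca
Zfp111 (chr7:24208146-24208174, plus strand): aattaccattCCCAGAATGcctcagtgga
Zup1 (chr10:33951222-33951250, plus strand): gggtagagatCCCAGCATGccccgctgca
Rpp30 (chr19:36083639-36083707, plus strand): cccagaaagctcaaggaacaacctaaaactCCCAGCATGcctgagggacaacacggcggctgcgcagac
Gm26901 (chr1:7397638-7397706, plus strand): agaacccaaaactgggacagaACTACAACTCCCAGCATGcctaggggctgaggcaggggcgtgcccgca
Ubxn8 (chr8:33641728-33641800, minus strand): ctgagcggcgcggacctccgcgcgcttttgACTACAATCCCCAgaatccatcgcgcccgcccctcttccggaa
Acly (chr11:100528019-100528091, minus strand): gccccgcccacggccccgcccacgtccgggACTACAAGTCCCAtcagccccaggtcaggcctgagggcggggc
Rnf44 (chr13:54694526-54694598, plus strand): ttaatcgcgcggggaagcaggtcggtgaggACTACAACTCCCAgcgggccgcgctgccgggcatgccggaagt
Stau1 (chr2:166996415-166996483, minus strand): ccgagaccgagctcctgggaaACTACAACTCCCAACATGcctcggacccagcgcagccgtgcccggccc
Kif13b (chr14:64652423-64652491, plus strand): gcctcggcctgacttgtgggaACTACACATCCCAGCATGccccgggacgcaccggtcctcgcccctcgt
Dync1i2 (chr2:71211733-71211761, plus strand): agggctccgcCCCAGGATGtgaggtgtgg

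The peaks sat close to the transcript start. The median distance between peak centre and start was 74 bp, with quartiles of 24 and 211 bp. Of the 1339 peaks, 768 (57.4%) were centred within 100 bp, 389 between 100 and 500 bp, 85 between 500 and 1000 bp and 97 between 1000 and 2000 bp. The centre lay upstream of the start in 870 peaks (65.0%), in a 5′ UTR in 212, in an intron in 137, in an exon of a non-coding transcript in 71 and in a coding exon in 36. Of the genes, 1222 were protein-coding and 84 long non-coding. A start of another gene type was also in reach of 114 peaks, among them 23 miRNA, 18 snoRNA and 16 snRNA genes. A further ZFP143 peak of another class lay near 31 of the genes.

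Enrichment, the fold of ChIP signal over input at the summit as given by the peak caller, had a median of 31.7-fold and ran from 3.95-fold to 218-fold. The median was 36.9-fold at promoters shared by several genes, 29.1-fold at peaks that overlapped CTCF and 10.2-fold away from these starts. Enrichment fell with distance, from a median of 37.4-fold within 100 bp to 29.7-fold at 100 to 500 bp, 11.3-fold at 500 to 1000 bp and 10.4-fold beyond. The peaks just inside the 2 kb limit were those of Gm26698 at -1990 bp (7.51-fold), Ptcd1 at 1984 bp (11.8-fold), Psmb6 at -1961 bp (6.23-fold) and Mark4 at 1930 bp (29.1-fold). Just outside it lay the peaks near Gm14964 at 2035 bp (71.3-fold), Dlg4 at 2038 bp (116-fold), Chuk at -2039 bp (6.72-fold) and Ldhal6b at 2043 bp (10.6-fold).

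**Figure D1:**
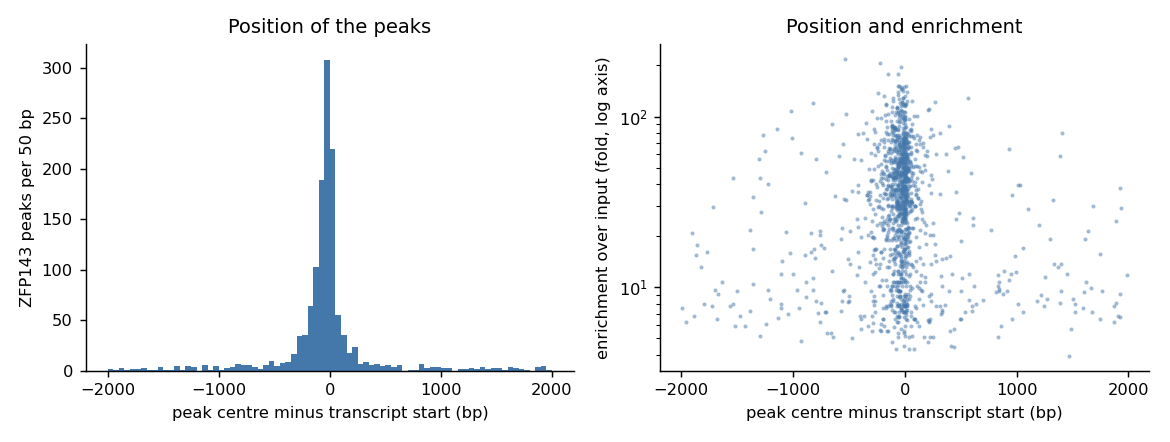
Left, number of the 1339 peaks by the distance of the peak centre from the transcript start in bp, in bins of 50 bp with upstream positions negative. Right, the same distance against the enrichment over input of each peak on a log axis. Peaks pile up at and just upstream of the start (median distance 74 bp), while the most enriched peak lies at -531 bp.

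Motif matches were counted in 401 bp around the summit on both strands. The core CCCANNATG was present in 349 peaks (26.1%), against 6.66% of windows of that length at the starts of all protein-coding and long non-coding genes. The longer form ACTACANNNCCCA, which can overlap the core and was chosen after the core matches had been seen, was present in 453 peaks (33.8%) against 1.83%. Among genes tested in TT-seq these backgrounds were 6.28% and 3.35%. In windows centred on the start, as for the backgrounds, 16.8% of the 1306 genes with a peak held the core and 22.8% the longer form. The longer form lay within 20 bp of the summit in 64.7% of the peaks that held it, on the strand of the gene in 62.5%, and at a median of -76 bp from the start. Neither form was found in 670 peaks, which says only that these letters were absent from the window. The most frequent forms of the core were CCCAGCATG in 90 peaks, CCCAGAATG in 68 and CCCACAATG in 55.

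Peaks with the longer form had a median enrichment of 44.8-fold, those with the core alone 24.4-fold and those with neither 22.1-fold. The longer form was found in 5.67%, 33.7%, 43.9% and 52.1% of peaks in 4 equal groups of rising enrichment. The core, with or without the longer form, was found in 23.3%, 26%, 24.5% and 30.5% of peaks in the same groups.

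Of the 1306 genes, 1304 were found in the count tables and the count filter kept 1225 of them for TT-seq, 1155 for the RNA-seq time course and 1220 for the RA experiment. A total of 1146 passed in all 3 tables and 47 in none. Library totals were 9721568 to 16532077 counts for TT-seq, 10261851 to 15316700 for the time course and 13890761 to 27089033 for the RA experiment. The libraries carried the markers of stem cells. The summed level of 10 such genes was 3767 to 3966 CPM (counts scaled to library size) in the TT-seq DMSO libraries and 3830 to 4154 CPM after 2 h of dTAG, while that of 6 fibroblast genes was 0.302 to 0.926 CPM in DMSO, with Col3a1, Dcn and Postn at 0. In RNA-seq the fibroblast genes summed to 0.165 to 0.196 CPM in DMSO and 1.87 to 2.53 CPM after 72 h, with Col3a1, Dcn, Lum and Postn at 0 and the 1 tested gene called higher by edgeR. The summed level of 6 markers of the primed epiblast was 920 to 965 CPM in DMSO and 275 to 291 CPM after 72 h in RNA-seq, and its part in the later results was not tested. Over the same time, 6 markers of primitive endoderm summed to 5.69 to 6.14 CPM and 16.1 to 16.9 CPM, with 2 of 3 tested called higher by edgeR, and the stem cell markers to 5122 to 5327 CPM and 4337 to 4379 CPM, with 4 of 10 called lower. Their part was not tested either. The Zfp143 gene itself, whose promoter is not among these peaks, was at 71.2 and 74.2 CPM in the DMSO libraries and at 164 CPM in both 2 h libraries of TT-seq. This checks the treatment at the level of RNA only, since dTAG acts on the protein.

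Within 2 h of dTAG, genes with such a peak lost new transcription far more often than they gained it. In TT-seq, 233 of the 1225 tested genes (19.0%) were called lower and 6 were called higher, where 2.37% of all 17870 tested genes were called lower and 0.168% higher. A call here means an adjusted p under 0.05 and a log2 change beyond 0.5 by edgeR. With the replicate number as a block 333 genes (27.2%) were called lower and 12 higher, against 3.68% and 0.509% of all tested genes. The median log2 change was -0.27 over these genes and 0.01 over all tested genes, and 924 of the 1225 (75.4%) lay below 0. Among genes without a ZFP143 peak within 2 kb, 23 of 13433 (0.171%) were called lower. Genes at promoters shared with other genes were called lower in 12.7% of cases and genes with a CTCF-overlapping peak in 13.5%. In bulk samples, fewer cells of a kind and less RNA per cell cannot be told apart. Leaving out the replicates of the comparison one at a time left 56 to 159 genes called lower, 159 without DMSO replicate 1, 99 without DMSO replicate 2, and 56 and 57 without replicates 1 and 2 of the 2 h group.

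The decreases were often large. Among the 233 genes the median log2 change was -1.48, and 174 fell by more than 1 on the log2 scale, 63 by more than 2 and 18 by more than 3.

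Among tested genes with a mean count of at least 100, the greatest decrease was that of Usp40, a member of the deubiquitinase family, whose peak centre lay 4 bp from its start with 41.8-fold enrichment. TT-seq gave 47.3 and 55.1 CPM in the DMSO libraries and 1.29 and 1.50 CPM at 2 h, a log2 change of -5.18 (SE 0.28, edgeR adjusted p = 0.000177). Dgkd overlaps Usp40 on the other strand. Rbm41, which encodes an RNA-binding protein, had 23.1 and 37.2 CPM in DMSO and 1.04 and 1.32 CPM at 2 h, a log2 change of -4.65 (SE 0.37). Zfp111, a zinc finger gene, had 45.6 and 40.1 CPM in DMSO and 2.09 and 1.98 CPM at 2 h, a log2 change of -4.39 (SE 0.26). In all 3 genes the depleted libraries lay far below both control libraries. Rpp30, a protein subunit of ribonuclease P, went from 42.6 and 53.7 CPM to 3.45 and 3.90 CPM (log2 change -3.70, SE 0.21), and its 127-fold peak was centred at -50 bp. Zup1, a deubiquitinase of lysine-63-linked chains, fell by 3.79 on the log2 scale. Sult6b1, of the sulfotransferase family, fell by 3.82 although its peak was only 13.7-fold enriched, and Gm26637 overlaps it on the other strand. For these 6 genes the edgeR adjusted p lay between 0.000177 and 0.000842.

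**Figure D2:**
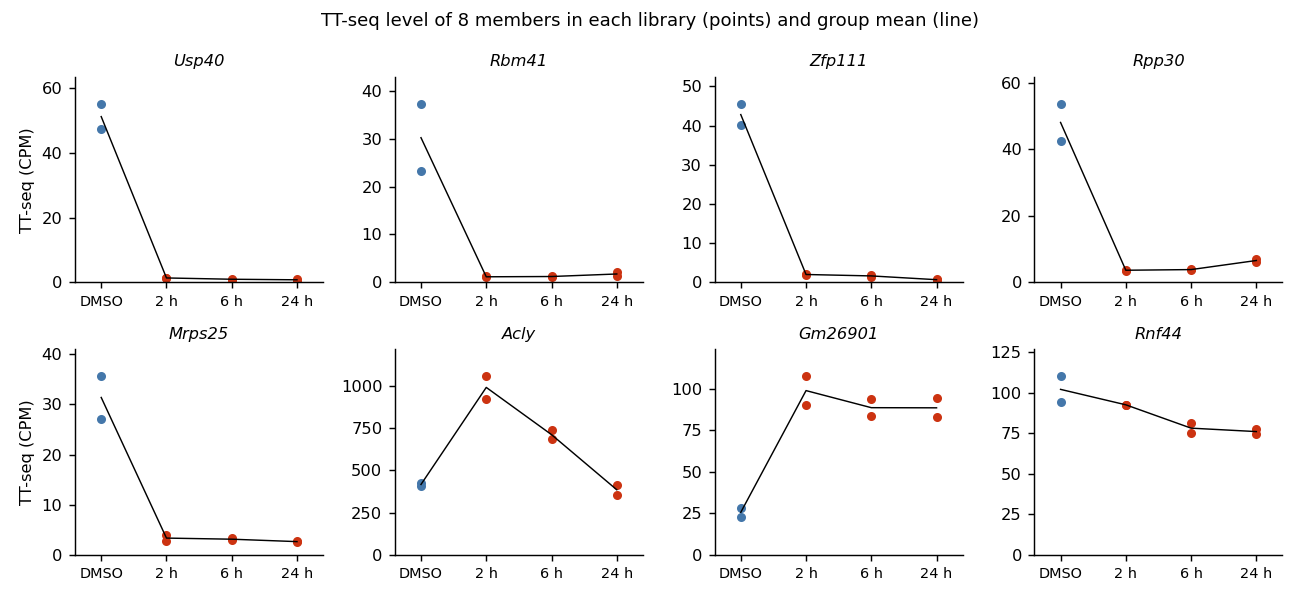
TT-seq level in CPM in each library of DMSO, 2 h, 6 h and 24 h of dTAG for Usp40, Rbm41, Zfp111, Rpp30, Mrps25, Acly, Gm26901 and Rnf44. Points are the 2 libraries of a group and lines join the group means. The first 5 genes lay below both DMSO libraries at every time, Acly was above them at 2 h with 924 and 1056 CPM against 406 and 426 CPM, and Rnf44, with the most enriched peak, was called at no time.

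The 6 genes called higher at 2 h all held the longer motif form in their peaks, which were 43.5 to 73.1-fold enriched. This form, chosen after core matches had been seen, was held by 43.9% and 52.1% of all peaks in the 2 most enriched groups. Their number depended on the fit, with 12 genes called higher with a replicate block, 13 without the count filter and 4, 5, 5 and 3 without DMSO replicates 1 and 2 and 2 h replicates 1 and 2, and the motif was counted for the 6 genes only. Gm26901, a long non-coding gene, rose from 22.8 and 28.3 CPM to 90.2 and 107 CPM, a log2 change of 1.95 (SE 0.16, edgeR adjusted p = 0.000828). Its peak was centred 127 bp downstream of the start. Ubxn8, which encodes an adaptor of the p97 ATPase, rose from 40.0 and 44.4 CPM to 102 and 107 CPM, a log2 change of 1.31, and its peak lay in a coding exon 109 bp downstream. Both genes were also called higher in RNA-seq at 24 h, by 1.79 and 1.96. Acly, ATP citrate lyase, which supplies cytosolic acetyl-CoA, rose by 1.25 at 2 h and stood at a log2 change of -0.11 at 24 h. In RNA-seq its level was 914 and 939 CPM in DMSO and was not called at 24 h (log2 change 0.15). Pank3, a pantothenate kinase of coenzyme A synthesis, rose by 1.23, Hbp1, a transcriptional repressor with an HMG box, by 0.96, and Emsy, which encodes a BRCA2-binding protein, by 0.91. Their peaks were centred at 53, -10 and -53 bp from the start.

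The share of genes called lower rose with enrichment. From the least to the most enriched of 4 equal groups of genes, 10 of 295 (3.39%, exact Clopper-Pearson 95% interval 1.64 to 6.15%), 39 of 303 (12.9%, 9.32 to 17.2%), 73 of 312 (23.4%, 18.8 to 28.5%) and 111 of 315 (35.2%, 30 to 40.8%) were called lower in TT-seq at 2 h. These intervals cover counting error only, and the shares depended on the libraries used. Leaving out 1 of the 4 libraries gave 0.339 to 1.71%, 2.98 to 9%, 3.25 to 14.0% and 9.58 to 26.8% in the same groups. The most enriched group had the highest share each time, while the middle groups did not keep their order without replicate 2 of the 2 h group (3.31% and 3.25%). The groups spanned enrichments of 3.95 to 13.8, 14.0 to 32.3, 32.3 to 54.4 and 54.7 to 218-fold, and their median log2 changes were -0.09, -0.26, -0.34 and -0.52. Across the 1225 genes, which share the same libraries, the Spearman rho between enrichment and log2 change was -0.299. It varied between -0.313 and -0.252 when single dTAG and DMSO libraries were paired. Median DMSO levels in these groups were 48.5, 43.1, 52.3 and 62.3 CPM. The level in DMSO was itself related to the change, with a rho of 0.264 over the same genes. From the lowest to the highest of 4 equal groups by DMSO level the median log2 changes were -0.55, -0.39, -0.26 and -0.09, and 20.8%, 24.5%, 19.6% and 11.1% were called lower. Its part in the relation to enrichment was not tested.

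**Figure D3:**
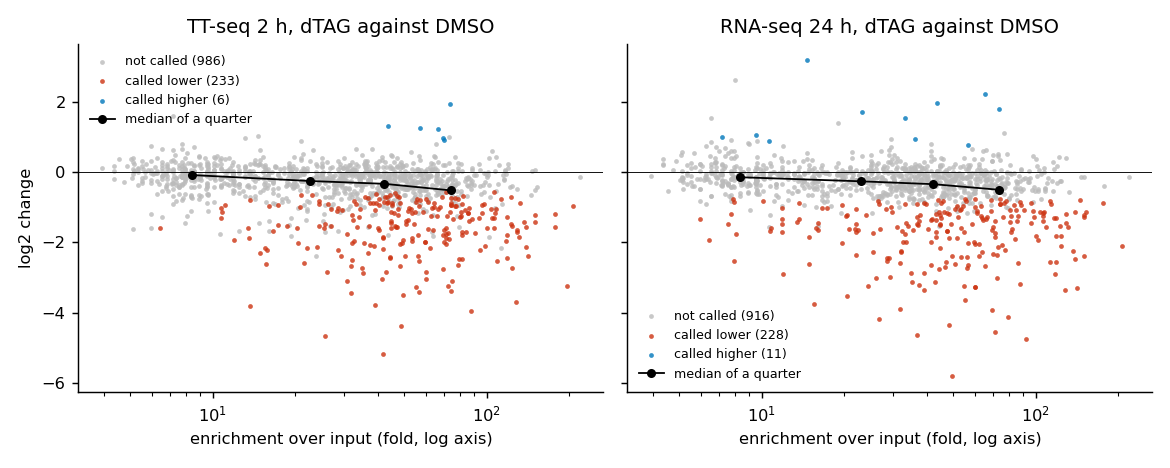
Enrichment of the peak over input on a log axis against the log2 change of its gene, for TT-seq after 2 h (left, 1225 genes) and RNA-seq after 24 h (right, 1155 genes). Colours mark genes called lower (233 and 228), called higher (6 and 11) or not called, and the black line joins the medians of the 4 equal enrichment groups, which fall from -0.09 to -0.52 at 2 h.

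The share called lower also fell with distance from the start. It was 184 of 724 (25.4%, 22.3 to 28.8%) within 100 bp, 45 of 358 (12.6%, 9.32 to 16.5%) at 100 to 500 bp, 3 of 71 (4.23%, 0.880 to 11.9%) at 500 to 1000 bp and 1 of 72 (1.39%, 0.0352 to 7.50%) beyond. Leaving out 1 of the 4 libraries gave 6.67 to 17.2% within 100 bp and 2.24 to 9.83% at 100 to 500 bp. The highest shares were on both sides of the start, at 27.1% for centres 0 to 50 bp upstream and 28.0% for 0 to 50 bp downstream. Enrichment and distance were themselves related, with a Spearman rho of -0.254 over the 1306 genes. Each still went with the share called lower when the other was held within limits. In the most enriched group 40.0% of genes with a peak within 100 bp and 25.7% of those beyond were called lower, and in the third group 29.2% and 11.0%. In the least enriched group the shares were 4.07% and 2.91%. Leaving out 1 of the 4 libraries gave 11.1 to 30.3% and 6.67 to 20% in the most enriched group and 4.78 to 16.3% and 0 to 9.09% in the third, with the share within 100 bp the higher each time. Within 100 bp alone the rho between enrichment and log2 change was -0.258 (724 genes).

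**Figure D4:**
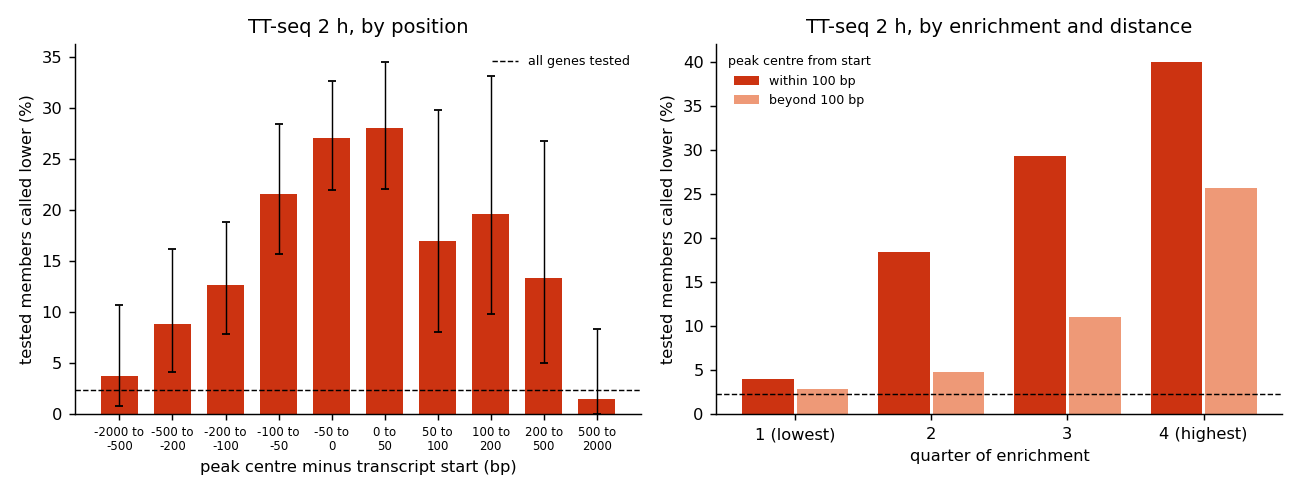
Percent of tested genes called lower in TT-seq after 2 h, by position of the peak centre from the start in bp (left) and by the 4 equal enrichment groups split at 100 bp from the start (right). Bars on the points are exact 95% intervals, and the dashed line is the 2.37% of all tested genes. The share peaks at 28.0% for centres 0 to 50 bp downstream of the start and at 40.0% for the most enriched peaks within 100 bp.

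Among genes whose peak held the longer motif form, the share called lower differed with its position. Genes whose peak held it were called lower in 26.5% of cases, those with the core alone in 18.6% and those with neither in 14.3%. Within the most enriched group these shares were close, 37.0% with the longer form and 33.3% without it. With the longer form 50 to 0 bp upstream of the start, 34 of 92 genes (37.0%) were called lower, with 32.8% at 100 to 50 bp and 26.7% at 200 to 100 bp upstream. More than 200 bp upstream it was 6 of 69 (8.70%), and more than 100 bp downstream 2 of 26 (7.69%). At 0 to 100 bp downstream it was 4 of 15 (26.7%). The 6 genes called higher lay 200 to 100 bp upstream (1), 100 to 50 bp upstream (1), 50 to 0 bp upstream (2) and more than 100 bp downstream (2). With 1 of the 4 libraries left out, the share was 7.64 to 17.4% with the longer form and 3.07 to 11.0% without it, and in the most enriched group 9.32 to 26.7% and 9.87 to 27%. For the longer form 50 to 0 bp upstream it was 7.69 to 25.8%, at 100 to 50 bp 11.3 to 22.6%, at 200 to 100 bp 7.78 to 19.3%, more than 200 bp upstream 0 to 5.80% and 0 to 100 bp downstream 0 to 13.3%. More than 100 bp downstream it was 0% each time. Median enrichment at these 6 positions was 47.3, 49.6, 44.8, 40.6, 38 and 57.7-fold. Among the most enriched peaks, a GC box GGGCGGGG was found at 14.4% of the genes called lower and 31.2% of those not called. It was found in 23.2% of all 1339 peaks, and in windows centred on the start at 31.4% of all genes tested in TT-seq. Of the motifs compared between these sets it had the widest gap. No values with 1 library left out are given for it. Median DMSO levels were 40.8 CPM in the genes called lower and 70.9 CPM in those not called, and the part of the level was not tested.

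High enrichment alone did not go with a change at each gene. The most enriched peak, 218-fold, stood at -531 bp from the start of Rnf44, a RING finger ubiquitin ligase gene, which had 110 and 94.0 CPM in DMSO and 92.5 and 92.7 CPM at 2 h (log2 change -0.14). The 206-fold peak of St3gal2, a sialyltransferase gene, and the 196-fold peak of Mrps25, of the small subunit of the mitochondrial ribosome, stood at genes that fell by 0.96 and 3.24. Gm26816 and Nr2c2 overlap these genes on the other strand. The gene 9430015G10Rik, with a 177-fold peak, went from 50.1 and 52.2 CPM to 24.0 and 20.6 CPM, a log2 change of -1.20. Birc5, which encodes survivin, had a 177-fold peak and fell by 1.58, from 66.9 and 66.6 CPM to 22.3 and 22.4 CPM, and Pa2g4, an ErbB3-binding protein gene, had a 150-fold peak and fell by 1.21. Chmp4b, an ESCRT-III subunit gene with a 152-fold peak, was not called at 2 h (log2 change -0.43) and was called lower at 24 h (-0.87). Dync1i2, an intermediate chain of dynein, had a 150-fold peak 14 bp from its start and a log2 change of 0.05.

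Of the 1146 genes tested in all 3 tables, 550 (48.0%) were called in none of the 8 comparisons with DMSO, against 62.5% of all 12811 genes tested in the 3 tables. These made up 108 of 304 (35.5%) in the most enriched group and 152 of 265 (57.4%) in the least enriched. Besides Rnf44 and Dync1i2, the most enriched of them were Morf4l1 (146-fold), a chromatin protein gene, Dffa (124-fold), the inhibitor of a caspase-activated nuclease, Stau1 (116-fold), an RNA-binding protein gene, and Kif13b (114-fold), a kinesin gene. Their log2 changes in TT-seq at 2 h were 0.02, -0.39, 0.06 and -0.07. Gm26882 overlaps Morf4l1 on the other strand. A missed call does not show that a gene did not change.

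More of these genes were called at the later times. TT-seq called 249 of these genes lower and 8 higher at 6 h, and 314 lower and 11 higher at 24 h, where the shares of all tested genes were 2.92% and 0.386%, and 4.25% and 2.01%. These comparisons share the DMSO libraries, so their calls are not independent. With a replicate block 383 genes were called lower at 6 h and 420 at 24 h, the latter 34.3% against 6.89% of all tested genes. Leaving out 1 replicate left 63 to 164 genes called lower at 6 h, with 164 and 128 without DMSO replicates 1 and 2 and 63 and 69 without replicates 1 and 2 of the 6 h group. At 24 h it left 187 and 199 without the DMSO replicates and 192 and 158 without those of the 24 h group. The genes called higher numbered 2 to 4 at 6 h and 4 to 8 at 24 h when 1 replicate was left out, and 20 and 27 with a replicate block. Without replicates 1 and 2 of DMSO and of dTAG they numbered 4, 4, 2 and 2 at 6 h and 7, 8, 4 and 6 at 24 h. Enrichment kept its relation to the change, with a rho of -0.288 at both 6 and 24 h. Tested directly, 4 genes were lower and 1 was higher at 24 h than at 2 h, where 0.0951% and 0.0504% of all genes were called. None of these 5 calls held when 1 replicate was left out. The counts rested on the fit, with 54 lower and 25 higher with the replicate number as a block, 26 and 8 by DESeq2 and 58 and 23 without the count filter. Over all genes, the shares lower and higher were then 2.34% and 3.05%, 1.09% and 1.28%, and 1.35% and 2.25%.

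The mRNA of these genes was also called lower more often than higher. In RNA-seq, a call required an adjusted p under 0.01 against a fold change of 1.5 in glmTreat of edgeR. After 24 h, 228 of 1155 genes (19.7%) were called lower and 11 higher, where 3.41% and 2.32% of all 13925 tested genes were. After 48 h the counts were 298 and 37 (7.71% and 10.5% of all genes), and after 72 h 335 and 58 (12% and 13.7%). DESeq2 called 4 genes higher at 24 h and 36 at 72 h, and without replicate 2 of DMSO or of the 24 h group 7 and 6 were higher at 24 h. Scaling by library size alone moved the median log2 change of all genes to 0.15, 0.21 and 0.23 at the 3 times. It gave 224 lower and 64 higher of these genes at 48 h and 244 and 102 at 72 h. Over all tested genes it gave 698 lower and 2043 higher at 48 h, in place of 1073 and 1456. At 72 h it gave 1111 and 2731, in place of 1677 and 1912. The share of all lower genes that had such a peak was 48.0% at 24 h and 20% at 72 h. Over the enrichment groups, 7.06%, 14.6%, 21.3% and 34.1% of genes were called lower at 24 h and 20.4%, 27.4%, 30.7% and 36.4% at 72 h. The rho with enrichment was -0.280 at 24 h and -0.154 at 72 h.

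New transcription and mRNA came from separate libraries. Of the genes tested in both, 153 were called lower in TT-seq at 2 h and in RNA-seq at 24 h, which is 72.2% of the former and 67.7% of the latter. Among all 1147 genes tested in both, 18.5% and 19.7% were called lower. For TT-seq at 24 h against RNA-seq at 24 h the shared 184 genes were 63.7% and 81.4%, where 25.2% and 19.7% of the genes tested in both were called lower. No gene called lower in TT-seq at 2 h or 24 h was called higher in RNA-seq at 24 h. Only 0.959% of the genes tested in both were called higher there, so this says little. Of 212 genes called lower in TT-seq at 2 h, 141 were also lower in RNA-seq at 72 h, 198 lay below 0 there and 1 was called higher. At 72 h 29.1% of the genes tested in both were called lower. The 24 h depletion was also repeated in the RA experiment, where 208 genes were called lower as in the time course. These were 91.2% of the time course calls and 79.1% of those before RA, where 19.8% and 22.8% of the genes tested in both were called lower.

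Mpi, mannose phosphate isomerase, showed the greatest decrease in RNA-seq at 24 h among the genes that passed the count filter with a mean count of at least 100. Its RNA was at 69.4 and 66.5 CPM in DMSO and 0.886 and 1.55 CPM after 24 h, a log2 change of -5.81 (SE 0.16, edgeR adjusted p = 1.54e-20), and -6.57 after 72 h. In TT-seq it had fallen by 3.49 at 2 h and 6.27 at 24 h. Pycard, the adaptor of inflammasomes, went from 39.0 and 38.4 CPM to 1.69 and 1.37 CPM after 24 h, and Bckdk, the kinase that inhibits branched-chain ketoacid dehydrogenase, from 79.4 and 80.7 CPM to 4.27 and 3.46 CPM. St3gal2 and Lhpp, a phosphatase gene, fell further with time. St3gal2 RNA had a log2 change of -2.10 after 24 h and -5.89 after 72 h, and Lhpp RNA of -3.01 and -5.45. Rpp30 RNA moved the other way with time, at 30.6 and 31.6 CPM in DMSO, 3.46 and 2.55 CPM after 24 h and 13.1 and 13.5 CPM after 72 h. In all 6 genes each depleted library named here lay below both control libraries.

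The count filter left out some of the strongest losses. In TT-seq at 2 h, 26 of the 79 genes not tested had more than 10 counts in both DMSO libraries, and 23 of these were called lower without the filter. A gene with such DMSO counts fails the filter only where nearly all dTAG libraries hold few counts, so these counts follow from the choice and are no test. Of the 149 genes not tested in the RNA-seq time course, 40 had more than 10 counts in both DMSO libraries, and 37 of these were called lower by edgeR when no filter was used. Zfp111 had 557 and 735 counts in the DMSO libraries and 8 and 3 counts after 24 h. Mrps25 had 465 and 658 counts and then 8 and 8. Rnaseh2c, a subunit of ribonuclease H2, had 337 and 390 counts and then 3 and 1, and Ccdc90b had 248 and 302 and then 1 and 4. Usp40 had 209 and 300 counts and then 3 and 2, and Rbm41 had 84 and 143 and then 1 and 2. In each of these genes the counts stayed at or below 14 through 72 h.

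Functional groups are given beside the other genes of the same list, which are not among the 1306 genes described here. The share to read the members' counts against is the 19.0% of all genes with such a peak that were called lower at 2 h, and counts near it say nothing particular about a group. The largest was that of zinc finger genes, many of which encode transcription repressors of the KRAB family, with 105 members. Of the 95 tested in TT-seq at 2 h, 28 were called lower and none higher, against 7 of the other 329 genes of the list. The median log2 change was -0.72 over the members and -0.11 over the whole list. In RNA-seq at 24 h, 36 of 90 members and 13 of 320 others were called lower. Zfp354c fell by 3.25 at 2 h, Zfp358 by 2.76 and Zfp449 by 2.30, and the calls of Zfp354c and Zfp449 were lost without replicate 1 of the 2 h group. Genes of this family can share near-identical stretches. Only uniquely mapped reads were kept for TT-seq, so reads from such stretches can go uncounted, which makes single values less certain.

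Several mitochondrial genes with such a peak were called lower. Of 7 mitochondrial ribosome genes 3 were called lower at 2 h, against 4 of 71 others of the list, with a member median of -0.56 and a list median of -0.25. Mrps25 went from 27.2 and 35.6 CPM to 3.86 and 2.82 CPM (log2 change -3.24, SE 0.25), Mrps22 fell by 1.59 and Mrpl42 by 0.84. Of 9 nuclear genes for subunits of oxidative phosphorylation 3 were called lower, against 5 of 72 others. Cox7c, of complex IV, went from 54.5 and 52.0 CPM to 3.86 and 6.95 CPM (log2 change -3.28, SE 0.29), Atp5j2, of ATP synthase, fell by 1.18 and Uqcrc2, of complex III, by 0.74. The factors of mitochondrial gene expression had 1 of 6 members called lower, the release factor gene Mtrf1 (-1.44), and 0 of 18 others. Tufm, the mitochondrial translation elongation factor, was not called at 2 h (-0.68). The calls of Mtrf1, Mrps22, Mrpl42, Atp5j2 and Uqcrc2 were each lost when at least 1 of the 4 libraries was left out.

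Of 4 aminoacyl-tRNA synthetase genes 2 were called lower at 2 h, among them Yars2 (-1.27), against 0 of 33 others. Among genes of RNA polymerases and basal factors it was 2 of 10, Gtf2h4 of TFIIH (-2.40) and Gtf2i (-0.89), against 1 of 75, and among splicing genes 2 of 8, the helicase gene Ddx23 (-1.43) and Prpf19 (-0.73), against 0 of 62. Cytosolic ribosomal protein genes had 2 of 19 members called lower at 2 h, Rplp2 (-0.92) and Rpl32 (-0.66), against 1 of 63 others. In RNA-seq it was 0 of 19 at 24 h and before RA and 10 of 19 at 72 h, against 19 of 64 others at 72 h, where 29.0% of all genes with such a peak were lower. At 2 h, replication genes had 1 of 4, mitosis genes 1 of 14, and genes of vesicle transport and tethering 1 of 9, against 0 of 38, 2 of 74 and 5 of 93. None of 5 proteasome and 10 translation initiation genes was called lower at 2 h, and no chaperonin gene was a member. Neither of the 2 stem cell markers with such a peak was called in TT-seq, and 1 was called lower in RNA-seq at 48 and 72 h. Hcfc2, related to the ZFP143 partner HCFC1, fell from 19.2 and 25 CPM to 6.91 and 5.27 CPM (log2 change -1.87), while Nrf1 stood at 0.07. Of 7 tested members that the study singled out 5 were called lower, among them Dnm1l, the mitochondrial fission GTPase (-0.57), but these were chosen on the same libraries. Calls at 2 h of Yars2, Gtf2h4, Gtf2i, Ddx23, Prpf19, Rplp2, Rpl32, Hcfc2 and Dnm1l were lost when 1 or more single libraries were left out, and that of Rpl32 also with library size scaling and that of Dnm1l with the size factors of DESeq2.

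RA treatment went with a smaller effect of dTAG at many of these genes. Before RA, 302 of 1220 tested genes were called lower and 10 higher (3.66% and 2.74% of all 15915 tested genes), and after RA 239 and 49 (7.36% and 9.1%). Scaling by library size alone gave 173 lower and 74 higher after RA, and over all tested genes 763 and 2084 in place of 1171 and 1449. The difference between the 2 effects was called higher, meaning a smaller decrease or a greater increase after RA, for 366 genes and lower for 113, where 13.7% and 18% of all genes were. With library size scaling it was called higher for 423 and lower for 96 of these genes. Over all genes the counts were then 2529 and 2410, in place of 2186 and 2863. The median difference was 0.23 over these genes and -0.07 over all. Over the enrichment groups the share with a higher difference was 20.2%, 24.3%, 31.9% and 42.2%. Of the 302 genes lower before RA, 193 (63.9%) had a higher difference and 169 were still lower after RA, and of 281 other genes lower before RA 162 (57.7%) had a higher difference. The libraries before RA enter both the choice of these genes and the difference, so the 2 are not independent. Stem cell markers summed to 5688 to 5772 CPM with DMSO and 5311 to 5352 CPM with dTAG before RA, and to 746 to 1093 CPM and 1682 to 1936 CPM after it. With DMSO and dTAG after RA, primitive endoderm markers summed to 34.3 to 35.1 CPM and 66.3 to 69.1 CPM, with 1 of 6 called higher, and fibroblast genes to 5.40 to 9.36 CPM and 22.1 to 23.1 CPM, with 1 of 2 tested called higher and Dcn and Lum at 0. The part of these markers in the differences was not tested.

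Usp40 showed the greatest difference in the higher direction among genes with a mean count of at least 100. With DMSO and dTAG it was at 23.4 and 22.0 CPM against 0.311 and 0.119 CPM before RA, and at 37.2 and 37.3 CPM against 5.29 and 6.55 CPM after it, a difference in log2 change of 4.12 (SE 0.35, edgeR adjusted p = 1.11e-08). Zfp111 moved from -6.67 to -3.14, a difference of 3.54. Trpm1, a cation channel gene, moved from -2.19 to 1.74, with levels after RA of only 0.573 and 0.477 CPM in DMSO and 2.13 and 1.49 CPM in dTAG. Hcfc2 moved from -1.93 to 0.27, the latter not called, a difference of 2.19. In the other direction, 1500009C09Rik was at 21.4 and 15.7 CPM in DMSO and 0.340 and 0.558 CPM in dTAG after RA, with log2 changes of -0.53 before RA and -5.36 after. Pax6, a transcription factor of eye and neural development, was at 49.0 and 54.6 CPM against 12.3 and 14.0 CPM after RA, a log2 change of -1.97 where it had not been called before (0.92). Its peak was weak, 6.54-fold and at -396 bp, and Pax6os1 overlaps it on the other strand. Fam13c changed by 0.49, not called, before RA and by -1.37 after. Setmar, Zfp354a and Plpp7 had no count in either dTAG library before RA, against 107 and 101, 126 and 125, and 27 and 24 counts in DMSO. With 3 counts per dTAG library as the floor, their log2 changes were at most -5.37, -5.64 and -3.34.

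**Figure D5:**
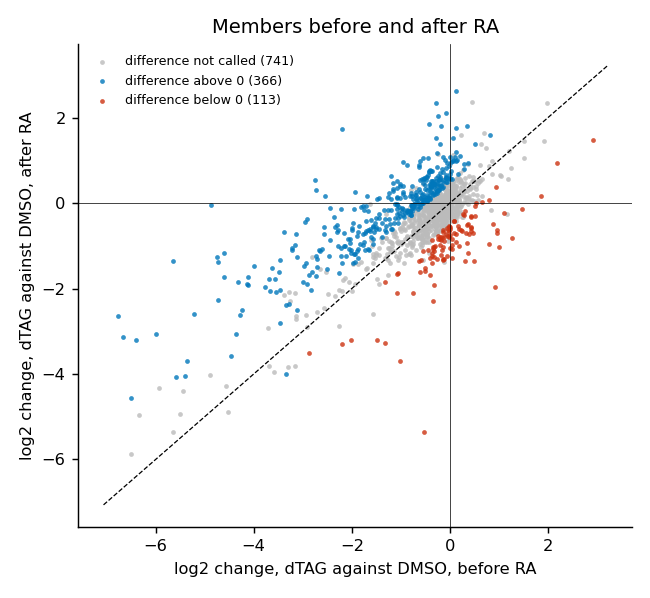
Log2 effect of dTAG before RA against that after RA for the 1220 tested genes. Colours mark the 366 genes whose difference between the effects was called higher and the 113 called lower, and the diagonal marks equal effects. Genes without counts in dTAG are drawn at their bound of 3 counts per library, and most strongly decreased genes lie above the diagonal.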

How the data were processed

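Counts per gene were deposited by the authors for TT-seq and both RNA-seq experiments, after alignment to mm10 with STAR and counting on GENCODE vM25, with PCR duplicates removed from TT-seq, so their values are raw read counts. The strand column taken for RNA-seq is not given in the sources used here. ZFP143 peaks were deposited by the authors as 1 MACS2 list against input, with a fold enrichment (a ratio over background) and -log10 of the q-value per peak (median 81.4). The libraries behind this list are not given in the sources used here. CTCF peaks of the DMSO and dTAG conditions had been pooled into 1 list after calling.

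Peaks were assigned to transcript starts of GENCODE vM21, whose identifiers matched 55141 of the 55401 genes of the tables. Where a gene had 2 peaks, the more enriched was used. A gene was kept where 4 or more of a table's 8 libraries held over 10 counts, and all kept genes were fitted with edgeR 4.0.16 (quasi-likelihood, TMM scaling, all 4 groups of a table in 1 fit), with Benjamini-Hochberg adjustment. TT-seq and difference calls required an adjusted p under 0.05 and a log2 change beyond 0.5, and RNA-seq calls used glmTreat at a fold of 1.5 and an adjusted p under 0.01. CPM were computed with TMM library sizes. The steps were tested on simulated data. The biological coefficient of variation was 17.2% in TT-seq, 3.65% in the time course and 5.92% in the RA table, so TT-seq resolved smaller changes less well. The labels call the samples replicates without naming separate clones, and p-values measure the spread between them.

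Named genes were the 8 most enriched members, the members with the greatest called changes per comparison at a mean count of at least 100, the 6 most enriched called in no comparison, up to 4 called lower per functional list, genes named by the study, and those at the 2 kb limit. Rnaseh2c, Ccdc90b, Setmar, Zfp354a, Plpp7, Hbp1 and Emsy were chosen after their values were seen. Members and lists were chosen with earlier results of these data known. Genome sequence was read from GRCm38.p6 with pysam 0.24.0.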

Additional observations from a re-analysis of the deposited data

Results flagged for a closer look

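The change between 2 h and 24 h of dTAG in TT-seq was tested directly, and 4 of the genes with a ZFP143 peak at their own promoter were lower and 1 was higher at 24 h by edgeR. With the replicate number as a block the counts were 54 and 25, or 4.41% and 2.04%, against 2.34% and 3.05% of all tested genes. At an unadjusted p under 0.05 the counts were 154 and 73, which is 12.6% and 5.96% of these genes against 7.38% and 8.14% of all tested genes. Among the named genes, St3gal2 differed by -1.20, Acly by -1.36 and Dpysl5, a dihydropyrimidinase-related gene of axon growth, by -1.71, while Hormad1, a meiotic chromosome gene, differed by 1.32. Each of these 4 calls was lost whenever 1 of the 4 libraries compared was left out. Gm42764 overlaps Dpysl5 on the same strand.

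The effect of dTAG differed between cells before and after RA, by an interaction term in edgeR, for 113 genes in the direction of a lower value after RA and for 366 in the direction of a higher value. The differences in log2 change were 4.12 for Usp40, 3.93 for Trpm1 and 3.54 for Zfp111, and -4.83 for 1500009C09Rik, -2.89 for Pax6 and -1.86 for Fam13c. RA treatment, the change of medium and the longer depletion cannot be told apart.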

How the results depend on the processing

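For the genes described here, no alternative run turned the order of the counts called lower and higher. Of 88 single-gene results rerun, none changed its sign where the gene was called in either run. Genes named only for high enrichment, for lack of a call, for the 2 kb limit or after their values were seen were not rerun. Over all tested genes, library size scaling turned 475 lower and 323 higher to 385 and 495 in RNA-seq at 24 h. It turned 583 and 436 to 483 and 626 before RA, and 2863 and 2186 to 2410 and 2529 for the RA difference. Without the count filter, TT-seq called 345 genes lower and 13 higher for 2 h (26.5% of 1302 lower), 415 and 19 for 24 h (31.9% lower), and 18 higher for 6 h, and 58 were lower and 23 higher at 24 h than at 2 h. The DESeq2 Wald test gave 26 and 8 for that difference, and in RNA-seq 4 higher genes for 24 h and 36 for 72 h. Library size scaling alone gave 64 higher genes for 48 h, 102 for 72 h and 74 after RA, where 2043, 2731 and 2084 of all tested genes were then higher. With peaks of at least 10-fold enrichment, 38 genes were higher at 72 h and 32 after RA, and the rho between enrichment and change at 2 h was -0.222. With the TT-seq thresholds, chosen after seeing the data, RNA-seq gave 399 lower and 36 higher genes for 24 h, 460 and 87 for 48 h, 119 higher for 72 h, 476 and 40 before RA and 422 and 123 after RA. Leaving out 1 replicate gave 56 to 159 lower and 3 to 5 higher genes in TT-seq for 2 h, 63 to 164 and 2 to 4 for 6 h, 158 to 199 and 4 to 8 for 24 h, 0 to 0 for both directions of 24 h against 2 h, 6 to 10 higher in RNA-seq at 24 h and 32 to 40 after RA, and a rho of -0.313 to -0.268. Where this left a group with 1 library, it was assumed to vary like the other groups. The cause of these changes was not tested. Replicate numbers are shared between groups but nothing in the labels pairs them. Same-numbered libraries deviated together in TT-seq (r of 0.193 to 0.631) and not clearly in the RNA-seq time course (-0.0419 to 0.0621) or the RA table (-0.0986 to 0.125). With a replicate block, TT-seq gave 333 lower and 12 higher genes for 2 h, 383 and 20 for 6 h, 420 and 27 for 24 h, and 54 and 25 for 24 h against 2 h.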

Other observations

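In RNA-seq 11, 37 and 58 genes with a ZFP143 peak at their own promoter were called higher at 24, 48 and 72 h, where 2.32%, 10.5% and 13.7% of all tested genes were. Adtrp, which encodes a hydrolase of fatty acid esters of hydroxy fatty acids, was at 1.19 and 0.782 CPM in DMSO and 10.1 and 7.46 CPM after 24 h, and its log2 change was 3.19 at 24 h and 4.30 at 72 h by edgeR. Esrp1, an epithelial splicing regulator, rose by 2.24 at 72 h and Fam13c by 2.55, while Zfp446, a zinc finger gene, had risen by 1.53 at 24 h.

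Among genes of the lists called lower in TT-seq at 2 h, Prim1, the small subunit of primase, stood at -0.89, Bub1b, a spindle checkpoint kinase gene, at -0.65 and Vps41, a subunit of the HOPS tether, at -0.72. The calls of Prim1 and Bub1b were lost whenever 1 of the 4 libraries was left out, and that of Vps41 in 3 of the 4 cases.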
